A study of Mus musculus with 672 samples.

Results

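The expression of 8 genes, Muc13, Ifitm1, Wfdc17, Akr1c13, Afap1l1, Krt18, Dapp1 and Anxa1, was followed through 3 sorted populations of mouse lymphoid progenitors. They were chosen from the 46078 genes of the count table because they were lower in all-lymphoid progenitors (ALPs) than in lymphoid-primed multipotent progenitors (LMPPs). All 8 were among the 19903 genes that passed the filter on low counts. The LMPP and ALP values that chose the genes are therefore given as a description with no test. Genes related to the 8 and marker genes were also tested from LMPPs to ALPs, on the same libraries. For the 8 genes, tests are given only between genotypes and between ALPs and the next population, B cell-biased progenitors (BLPs). The LMPP and ALP libraries also enter some of those tests, whereas the BLP libraries took no part in the choice.

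LMPPs are early marrow progenitors that can still give rise to both myeloid and lymphoid cells. Gain of the interleukin-7 receptor marks their passage to ALPs, and gain of Ly6D marks the bias towards the B lineage in BLPs. Genes used by stem cells and myeloid cells are switched off along this path while B-lineage genes are switched on. Mbd3 is a subunit of the NuRD complex, which remodels nucleosomes and removes acetyl groups from histones.

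The marrow of femurs and tibiae came from 4 mice aged 7 weeks on a C57BL6/129Ola background, and its cells were sorted singly. Both control mice (18218 and 18220) carried floxed Mbd3 alleles (Mbd3flox/flox), and both null mice (18217 and 18219) carried deleted alleles (Mbd3del/del). What drove the deletion is not stated in the sources used here. All 3 populations were negative for lineage markers and B220 and positive for Sca-1, c-Kit and high Flt3. LMPPs lacked the interleukin-7 receptor, ALPs had it without Ly6D, and BLPs had both. After limits on quality 561 cells were kept, and their reads were summed into 12 libraries of 53741264 to 137497554 gene counts, 1 for each mouse and population. Levels are counts scaled to a common library size (CPM) on these sums, the mouse is the replicate, and each group has 2 mice. The labels do not say whether the mice were littermates.

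Il7r and Ly6d differed between populations in the direction of their gates. Mean Il7r in control mice was 20.6 CPM in LMPPs and 748 CPM in ALPs. Mean Ly6d in control mice was 86.6 CPM in ALPs and 3271 CPM in BLPs. Of the 6 gate genes tested, 2 were higher and 4 lower in control ALPs than in control LMPPs. In null mice 4 were higher and 2 lower. Ly6d, whose protein was absent from ALPs by the sort, was already higher there than in LMPPs (log2 fold change 4.62 in null mice). Kit, sorted as positive throughout, was lower in null ALPs than in null LMPPs (log2 fold change −1.79). Mbd3 was at 48.2 to 184 CPM in control libraries and at 0.194 to 24.4 CPM in null libraries. The highest null value was in LMPPs of mouse 18219, where 1 cell gave 98.3% of the Mbd3 reads. The cell limits left out 111 cells, of which 86 were ALPs of mice 18219 and 18220. Median nuclear gene counts per kept cell, without mitochondrial genes, were 1586214.5 to 2340592 in control libraries and 1004760 to 1285444 in null libraries. Shares of cells were therefore taken after thinning each cell to 50000 gene counts.

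All 8 genes were lower in ALPs than in LMPPs of the same genotype, with no overlap between the libraries of the mice, in control and in null mice. Of all genes tested, 19.9% were lower without overlap in control mice and 18.1% in null mice. The size of the difference in control mice ran from a log2 fold change of −7.66 for Muc13 to −1.54 for Dapp1. In null mice it ran from −3.98 for Wfdc17 to −0.59 for Akr1c13. Without mouse 18217 the null values were −4.78 for Wfdc17 and −4.38 for Muc13, and without mouse 18219 they were −3.06 and −2.79. These counts follow from how the genes were chosen. The smallest ratios of mean CPM in LMPPs to that in ALPs were 2.92 for Dapp1 in control mice and 1.50 for Akr1c13 in null mice. The genes were not all lost in ALPs: Dapp1 still had a read in 57.5% to 79.7% of ALPs at equal depth.

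**Figure D1:**
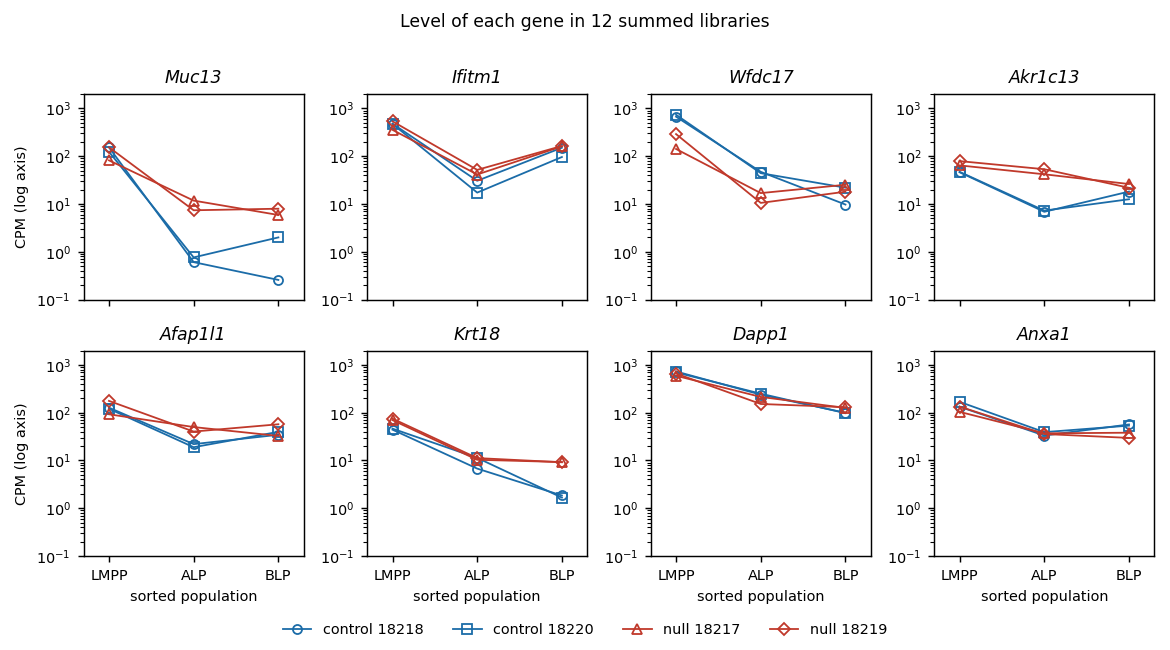
Level of each gene in CPM (log axis) in LMPPs, ALPs and BLPs, with 1 point per library and lines joining the libraries of a mouse, control mice in blue and null mice in red. All 8 genes were lower in ALPs than in LMPPs in every mouse, and Akr1c13 in null ALPs, at 41.8 and 53.4 CPM, lay far above its 6.86 and 7.27 CPM in control ALPs.

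Muc13 encodes a transmembrane mucin of the cell surface (ENSMUSG00000022824, chr16:33794037-33819934, GRCm38). In LMPPs Muc13 was at 153 and 124 CPM in control mice and at 81.8 and 154 CPM in null mice. In ALPs Muc13 was at 0.606 and 0.761 CPM in control mice and at 11.8 and 7.38 CPM in null mice. In BLPs Muc13 was at 0.257 and 2.00 CPM in control mice and at 5.89 and 7.96 CPM in null mice. Its mean CPM in LMPPs was 203 times that in ALPs in control mice, the largest such ratio of the 8, and 12.3 times in null mice. In CPM the null libraries lay above the control libraries in both later populations. Those null levels rested on few cells: 60.3% and 80.1% of the Muc13 reads of null ALPs, and 77.4% and 94.8% of those of null BLPs, came from a single cell. A read was seen in 53.2% and 40.4% of control LMPPs and in 31.1% and 36.2% of null LMPPs. In ALPs the shares were 4.05% and 0% in control mice and 13.9% and 4.76% in null mice. The ALP value of 0 was 0 of 40 cells, which allows a share of up to 7.5%. In control BLPs a read was seen in 0 of 34 and 4 of 35 cells. In null BLPs it was seen in 3 of 36 and 2 of 35 cells, so the genotypes overlapped by share. The Wilson 95% intervals of all shares of the 8 genes spanned 8.76 to 31.7 percentage points and cover counting error only. An antisense gene, Gm15657, overlaps Muc13, and 3.98% of the 50-base windows of its transcript were shared with it.

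Ifitm1 encodes an interferon-induced transmembrane protein that hinders the entry of viruses (ENSMUSG00000025491, chr7:140967221-140969825). In LMPPs Ifitm1 was at 479 and 475 CPM in control mice and at 356 and 537 CPM in null mice. In ALPs Ifitm1 was at 30.6 and 17.3 CPM in control mice and at 41.4 and 51.7 CPM in null mice. In BLPs Ifitm1 was at 151 and 96.1 CPM in control mice and at 161 and 164 CPM in null mice. Ifitm1 was lowest in ALPs and had an intermediate level in BLPs, with no overlap between the populations in either genotype. The share of cells with a read was 74.5% to 95.7% in LMPPs, 22.5% and 24.3% in control ALPs, and 41.8% and 45.2% in null ALPs. In BLPs it was 44.1% and 28.6% in control mice and 44.4% and 45.7% in null mice. The BLP level was concentrated in a minority of cells: the median cell was at 1.57 to 4.59 CPM in the 4 BLP libraries, while the cell at the 90th percentile was at 336 to 527 CPM.

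Wfdc17 encodes a small secreted protein with a whey acidic protein domain (ENSMUSG00000069792, chr11:83703991-83706268). In LMPPs Wfdc17 was at 671.6 and 737.6 CPM in control mice and at 141.6 and 290.1 CPM in null mice. In ALPs Wfdc17 was at 47.1 and 44.1 CPM in control mice and at 16.9 and 10.5 CPM in null mice. In BLPs Wfdc17 was at 9.73 and 21.9 CPM in control mice and at 25.3 and 18.1 CPM in null mice. The null libraries were below the control libraries in LMPPs and in ALPs, and the genotypes overlapped in BLPs. A read was seen in 93.6% and 85.1% of control LMPPs and in 75.6% and 72.3% of null LMPPs. In ALPs the shares were 33.8% and 32.5% in control mice and 29.1% and 14.3% in null mice. Among LMPPs with a read the median cell was at 574 and 686 CPM in control mice and at 125 and 238 CPM in null mice, so the lower null level was present within the cells that had a read. Per kilobase of exon Wfdc17 had the highest level of the 8 in control LMPPs, at a mean of 1322 CPM per kilobase, ahead of Ifitm1 at 436 and Dapp1 at 173. The other 5 were between 31.5 and 51.9 CPM per kilobase.

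Akr1c13 encodes an aldo-keto reductase, an enzyme that reduces steroids and other carbonyl compounds with NADPH (ENSMUSG00000021213, chr13:4191150-4205596). In LMPPs Akr1c13 was at 46.1 and 47.1 CPM in control mice and at 64.2 and 78.9 CPM in null mice. In ALPs Akr1c13 was at 6.86 and 7.27 CPM in control mice and at 41.8 and 53.4 CPM in null mice. In BLPs Akr1c13 was at 18.2 and 12.6 CPM in control mice and at 26.2 and 21.8 CPM in null mice. The mean CPM in LMPPs was 6.60 times that in ALPs in control mice and 1.50 times in null mice. Null libraries lay above control libraries in all 3 populations. A read was seen in 10.8% (8 of 74 cells, Wilson 95% interval 5.58% to 19.9%) and 10.0% (4 of 40, 3.96% to 23.1%) of control ALPs. In null ALPs the shares were 32.9% (26 of 79, 23.6% to 43.9%) and 38.1% (16 of 42, 25.0% to 53.2%). The null reads were spread over many ALPs, since the cell with the most gave 11.1% and 15.4% of them. In LMPPs the shares were 31.9% and 27.7% in control mice and 53.3% and 34.0% in null mice, so the LMPP and ALP shares of null mice overlapped. In BLPs of control mouse 18220 a single cell gave 95.8% of the Akr1c13 reads. The neighbouring gene Akr1c12 shared 28.6% of the 50-base windows of the Akr1c13 transcript, and reads from those windows could not be assigned to either with certainty.

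Afap1l1 encodes an adaptor protein of actin filaments (ENSMUSG00000033032, chr18:61730261-61786702). In LMPPs Afap1l1 was at 128 and 121 CPM in control mice and at 92.7 and 177 CPM in null mice. In ALPs Afap1l1 was at 22.0 and 19.0 CPM in control mice and at 50.1 and 40.3 CPM in null mice. In BLPs Afap1l1 was at 34.5 and 39.7 CPM in control mice and at 32.7 and 57.2 CPM in null mice. The null libraries were above the control libraries in ALPs, and the genotypes overlapped in LMPPs and BLPs. The share of cells with a read was 51.1% to 55.3% in LMPPs. It was 20.3% and 20.0% in control ALPs and 32.9% and 28.6% in null ALPs. An antisense gene, 1500015A07Rik, overlaps Afap1l1, and 3.12% of its transcript windows were shared with it.

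Krt18 encodes a keratin of simple epithelia, an intermediate filament protein that pairs with Krt8 (ENSMUSG00000023043, chr15:102028180-102032027). In LMPPs Krt18 was at 44.1 and 46.4 CPM in control mice and at 69.9 and 75.1 CPM in null mice. In ALPs Krt18 was at 6.76 and 11.3 CPM in control mice and at 10.4 and 11.2 CPM in null mice. In BLPs Krt18 was at 1.85 and 1.67 CPM in control mice and at 9.28 and 9.17 CPM in null mice. In CPM Krt18 was lower in BLPs than in ALPs without overlap in both genotypes. The log2 fold change was −2.36 ± 0.39 (SE) in control and −0.23 ± 0.37 in null mice. The mean share of cells differed by −6.04 percentage points in control and by 2.00 in null mice. The BLP levels rested on few cells: 79.5% and 94.9% of the Krt18 reads of control BLPs, and 40.6% and 63.4% of those of null BLPs, came from a single cell. A read was seen in 2 of 34 and 1 of 35 control BLPs (5.88% and 2.86%) and in 4 of 36 and 4 of 35 null BLPs (11.1% and 11.4%). In LMPPs the shares were 21.3% to 38.3%.

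Dapp1, also called Bam32, encodes an adaptor that binds the lipid products of PI3 kinase and signals downstream of the B cell receptor (ENSMUSG00000028159, chr3:137931007-137981545). In LMPPs Dapp1 was at 730 and 696 CPM in control mice and at 592 and 661 CPM in null mice. In ALPs Dapp1 was at 239 and 250 CPM in control mice and at 214 and 152 CPM in null mice. In BLPs Dapp1 was at 99.5 and 97.9 CPM in control mice and at 126 and 131 CPM in null mice. Dapp1 was the most widely detected of the 8 in ALPs and BLPs and was lower after each gate in both genotypes without overlap. A read was seen in 87.2% to 97.8% of LMPPs, in 57.5% to 79.7% of ALPs and in 42.9% to 67.6% of BLPs. Among LMPPs with a read the median cell was at 562 to 707 CPM, and among ALPs with a read at 121 to 337 CPM, so a lower share and a lower level per cell went together.

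Anxa1 encodes annexin A1, a protein that binds phospholipids in the presence of calcium and dampens inflammation through formyl peptide receptors (ENSMUSG00000024659, chr19:20373428-20390944). In LMPPs Anxa1 was at 133 and 169 CPM in control mice and at 104 and 134 CPM in null mice. In ALPs Anxa1 was at 33.3 and 39.2 CPM in control mice and at 37.0 and 35.8 CPM in null mice. In BLPs Anxa1 was at 56.8 and 53.6 CPM in control mice and at 38.1 and 29.7 CPM in null mice. The genotypes overlapped in LMPPs and ALPs, and null libraries were below control libraries in BLPs. A read was seen in 51.1% to 70.2% of LMPPs, in 23.0% to 38.1% of ALPs and in 20.0% to 36.1% of BLPs.

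**Figure D2:**
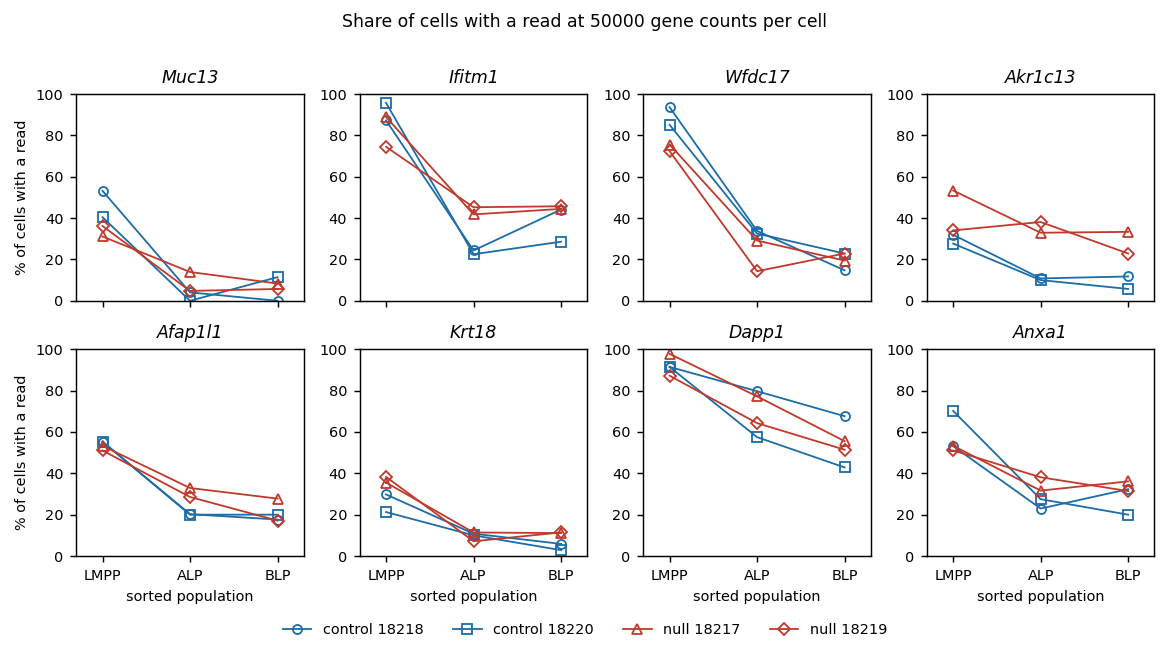
Share of cells with at least 1 read after thinning each cell to 50000 gene counts, in percent, with 1 point per mouse and population (control mice blue, null mice red). Dapp1 kept shares of 42.9% or more in every population, and Akr1c13 was seen in 32.9% and 38.1% of null ALPs against 10.8% and 10.0% of control ALPs.

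Counted together, LMPPs carried reads of more of the 8 genes than later cells. At equal depth the mean number with a read per LMPP was 4.96 and 4.87 in control mice and 4.89 and 4.45 in null mice. In ALPs it was 2.07 and 1.80 in control mice and 2.71 and 2.41 in null mice. In BLPs it was 1.94 and 1.54 in control mice and 2.36 and 2.09 in null mice. In both later populations the null mice were above the control mice. No such number was taken over all genes, of which 17.1% in ALPs and 16.3% in BLPs had higher null CPM without overlap. The ALP libraries also served to choose the genes for being low. None of the 186 LMPPs lacked reads of all 8. Within a mouse, at 45 to 47 cells, that allows a share of up to 6.38% to 6.67%. The genes were chosen for being higher in LMPPs than in ALPs, so these LMPP values are no independent support. Reads of 4 or more of the genes were found in 74.5% to 89.4% of LMPPs. Those shares were 12.2% and 7.5% of control ALPs, and 25.3% and 26.2% of null ALPs. With 2 mice against 2 an exact permutation test cannot go below a two-sided p of 0.333, so no share was tested.

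**Figure D3:**
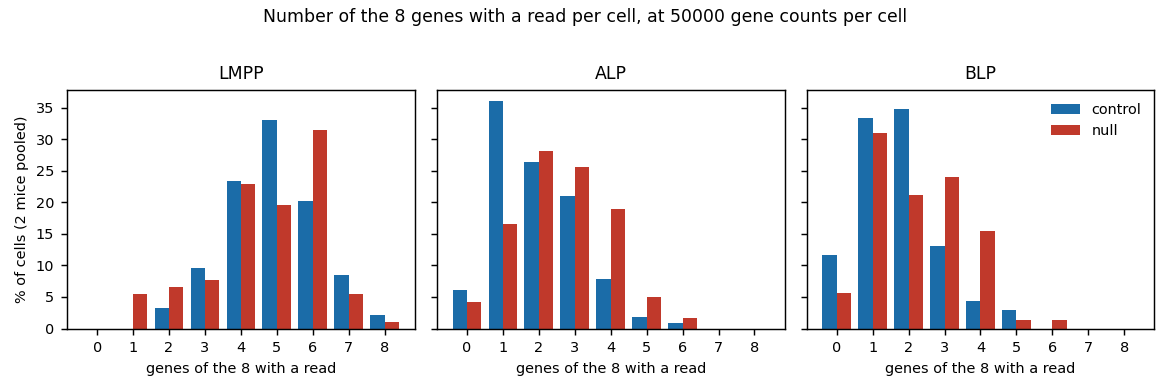
Percentage of cells by how many of the 8 genes had a read at 50000 gene counts per cell, control cells in blue and null cells in red, cells of 2 mice pooled in each bar. LMPPs centre on 4 to 6 genes, and ALPs and BLPs on 1 to 3.

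To show what the promoters of genes that were lower together share, the RefSeq windows of 300 bases around gene starts were searched on both strands for short motifs of factors active in early blood cells. The 8 windows found belong to 7 of the genes (2 for Muc13 and none for Afap1l1). The ETS letters GGAAGT were in 4 of the 8 windows (Akr1c13, Anxa1, Dapp1 and Ifitm1) and in 23.8% of all 32851 windows. The RUNX letters TGTGGT were in 2 (Dapp1 and Wfdc17) and in 16.8% of all, and the PU.1-type letters GAGGAA were in 3 (Anxa1, Muc13 and Wfdc17) and in 28.3% of all. None of the 8 windows held the GATA letters AGATAA (11.2% of all), the E-box letters CAGCTG (16.3%) or the interferon-stimulated response element (3.44%). The PAR bZIP letters TTANNTAA (6.0%) and the EBF letters CCCNNGGG (13.7%) were in none either. The GATA variant TGATAA was in a Muc13 window and in 9.05% of all. The E-box letters CACCTG were in the Krt18 window and in 20.2% of all. No motif was in all 8 windows, and a match is a stretch of letters, not a binding site. Of the printed stretches, Dapp1 holds both kinds of match, Akr1c13 was higher in null mice without overlap in all 3 populations, and Wfdc17 was lower in null LMPPs and ALPs. They end where the RefSeq or the GENCODE gene begins, are written 5′ to 3′ on the strand of the gene from build GRCm38.p6, and have matches in capitals (ACTTCC is GGAAGT on the other strand).
Dapp1 (chr3:137981550-137981799, minus strand): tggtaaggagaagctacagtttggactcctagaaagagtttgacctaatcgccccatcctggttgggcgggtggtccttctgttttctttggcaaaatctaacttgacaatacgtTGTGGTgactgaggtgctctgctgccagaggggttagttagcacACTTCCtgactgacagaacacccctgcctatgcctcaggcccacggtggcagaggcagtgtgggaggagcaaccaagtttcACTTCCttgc
Akr1c13 (chr13:4190937-4191149, plus strand): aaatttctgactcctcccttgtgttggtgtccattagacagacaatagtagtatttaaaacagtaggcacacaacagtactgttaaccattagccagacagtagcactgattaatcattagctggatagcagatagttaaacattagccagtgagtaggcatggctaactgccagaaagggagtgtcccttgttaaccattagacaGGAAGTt
Wfdc17 (chr11:83703806-83703990, plus strand): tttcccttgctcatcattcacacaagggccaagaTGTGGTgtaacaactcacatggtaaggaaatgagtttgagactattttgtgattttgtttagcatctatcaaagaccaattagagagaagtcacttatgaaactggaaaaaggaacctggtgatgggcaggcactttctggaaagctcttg

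The first test asked whether the absence of Mbd3 altered the genes in LMPPs. Wfdc17 had the smallest p of the 8: its mean was 705 ± 46.7 CPM in control and 216 ± 105 CPM in null mice (SD, 2 mice each). Its log2 fold change was −1.71 ± 0.46 (SE). It did not pass edgeR's quasi-likelihood test over all genes (adjusted p = 0.628). Akr1c13 had a log2 fold change of 0.62 ± 0.32 (adjusted p = 0.738) and Krt18 of 0.68 ± 0.37 (adjusted p = 0.739), with null libraries above control libraries for both. None of the 8 genes passed, against 0.0% of all genes called. At an unadjusted p under 0.05 the count was 1 of 8 against 6.76% of all genes. DESeq2 called 1 of 8 (Wfdc17, adjusted p = 0.0226) against 2.46%, and limma-voom called 0 of 8. The LMPP libraries in this test also served to choose the genes for being high there, so these counts are no independent support. Without overlap of mice 2 members were higher and 2 lower in null LMPPs, against 16.2% and 17.8% of all genes.

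In ALPs 4 genes were higher in both null mice than in both control mice, namely Muc13, Ifitm1, Akr1c13 and Afap1l1, and Wfdc17 and Dapp1 were lower. Of all genes 17.1% were higher and 17.0% lower without overlap. Akr1c13 averaged 7.06 ± 0.287 CPM in control and 47.6 ± 8.19 CPM in null ALPs (SD, 2 mice each). The ratio was 6.74 and the log2 fold change 2.75 ± 0.34 (SE). It did not pass edgeR's test (adjusted p = 0.179). Muc13 had a log2 fold change of 3.81 ± 0.84 (adjusted p = 1) and Wfdc17 of −1.73 ± 0.46 (adjusted p = 1). None of the 8 passed, against 0.00502% of all genes called. At an unadjusted p under 0.05 there were 6 of 8 against 4.5% of all genes. The control ALP libraries in this test also served to choose the genes for being low, so that count is no independent support. DESeq2 called 3 of 8 (Akr1c13, adjusted p = 7.9e-18; Muc13, adjusted p = 0.000159; and Wfdc17, adjusted p = 0.0238) against 1.39% of all genes, and limma-voom called 0 of 8.

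Other markers differed between the same ALP libraries. The summed level of 16 myeloid markers was 731 and 422 CPM in control and 1163 and 1040 CPM in null ALPs, with 4 to 6 of them at 0 in control libraries and 2 in each null library. Elane and Cebpe, which mark granulocyte precursors, were each at 0 in both control libraries, and S100a9 was at 0 in both null libraries. The sum of 20 stem and multipotent markers was 1975 and 1737 CPM in control and 1755 and 2075 CPM in null ALPs, which overlapped. The sum of 16 early B markers overlapped as well, at 10920 and 10140 CPM in control and 9952 and 11030 CPM in null ALPs, but 12 of the 16 were higher in null ALPs, with a median log2 fold change of 2.03 against 0 for all genes. Ebf1, a factor that sets up the B lineage, averaged 22.3 CPM in control and 185 CPM in null ALPs and was the 1 gene of all that passed edgeR's test in this comparison (log2 fold change 3.05 ± 0.26, adjusted p = 0.026). Its adjusted p was 6.1e-26 to 1 over 13 alternative fits and missed the threshold in 8, among them each fit without 1 mouse. The sum of 13 dendritic markers was 2657 and 3760 CPM in control and 1815 and 2195 CPM in null ALPs, with none at 0. The part of these differences in the levels of the 8 genes was not tested.

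In BLPs, whose libraries took no part in the choice, 5 genes were higher in both null mice (Muc13, Ifitm1, Akr1c13, Krt18 and Dapp1) and Anxa1 was lower in CPM. By share of cells 3 were higher without overlap (Ifitm1, Akr1c13 and Krt18), none was lower and 5 overlapped. No such count by share of cells was taken over all genes. The mean shares of Dapp1 and Anxa1 differed the other way from their CPM, by −1.76 and 7.59 percentage points in null against control BLPs. In CPM 16.3% of all genes were higher and 17.1% lower without overlap. Krt18 averaged 1.76 ± 0.127 CPM in control and 9.22 ± 0.0735 CPM in null BLPs (SD, 2 mice each). Its log2 fold change was 2.39 ± 0.39 (SE, edgeR adjusted p = 0.287). Muc13 had a log2 fold change of 2.61 ± 0.79 (adjusted p = 0.514) and Anxa1 of −0.70 ± 0.25 (adjusted p = 0.550). None of the 8 passed edgeR's test, against 0.01% of all genes called. The count at an unadjusted p under 0.05 was 3 of 8 against 8.83%. DESeq2 called 2 of 8 (Krt18, adjusted p = 6.0e-11, and Muc13, adjusted p = 0.0156) against 4.02%, and limma-voom called 0 of 8. When each cell was thinned to equal depth before summing, the log2 fold change of Krt18 was 1.14 and that of Muc13 was 1.50. Myeloid markers summed to 402 and 204 CPM in control and 587 and 618 CPM in null BLPs. Of the 16, 2 to 3 were at 0 in control libraries and 4 to 5 in null libraries. Of the 13 tested, 8 were higher and 5 lower in null BLPs. The part of these markers in the levels of the 8 genes was not tested.

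**Figure D4:**
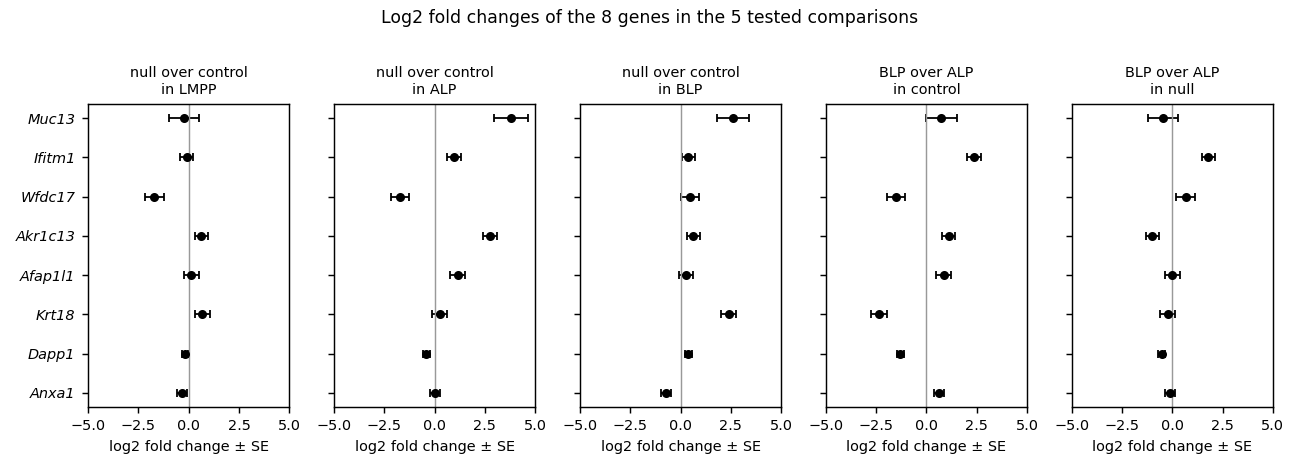
Log2 fold change of each gene with its approximate standard error in the 5 tested comparisons, from 1 edgeR fit of 12 libraries. Muc13 and Akr1c13 lie furthest right for null over control in ALPs, at 3.81 and 2.75, and none of the points passed an adjusted p of 0.05.

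The next gate, from ALPs to BLPs, separated the genes by direction in control mice. Ifitm1, Akr1c13, Afap1l1 and Anxa1 were higher in both control BLP libraries than in both ALP libraries, and Wfdc17, Krt18 and Dapp1 were lower in CPM. By share of cells Ifitm1 was higher without overlap, Wfdc17 and Krt18 were lower, and the other 5 overlapped. No such count by share was taken over all genes. The mean shares of Akr1c13 and Afap1l1 were lower in BLPs (differences of −1.67 and −1.31 percentage points), while their CPM was higher. In CPM 16.9% of all genes were higher and 19.8% lower without overlap. Dapp1 had a log2 fold change of −1.31 ± 0.17 (SE, edgeR adjusted p = 0.146), Ifitm1 of 2.37 ± 0.34 (adjusted p = 0.180) and Krt18 of −2.36 ± 0.39 (adjusted p = 0.234). With thinned cells the value of Krt18 was −0.74. None of the 8 passed, against 0.00502% of all genes called. The count at an unadjusted p under 0.05 was 7 of 8 against 7.5%, and the ALP libraries in it also chose the genes for being low. DESeq2 called 5 of 8 (Ifitm1, Dapp1, Krt18, Akr1c13 and Wfdc17) against 2.99%, and limma-voom called 0 of 8 against 0.01%. With no filter on low counts edgeR called Ifitm1 (adjusted p = 0.000903) and Dapp1 (adjusted p = 0.0216), and with thinned cells Ifitm1 (adjusted p = 0.0183). The largest single cell gave 49.6% and 41.8% of the Ifitm1 reads of control BLPs.

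In null mice Ifitm1 was again higher in BLPs, with a log2 fold change of 1.80 ± 0.33 (SE, edgeR adjusted p = 0.622). Akr1c13 was lower, at −0.99 ± 0.32 (adjusted p = 0.747), and so was Dapp1, at −0.51 ± 0.17 (adjusted p = 0.747). Without overlap 2 genes were higher (Ifitm1 and Wfdc17) and 3 lower (Akr1c13, Krt18 and Dapp1) in CPM, against 16.0% and 19.1% of all genes. By share of cells Afap1l1 and Dapp1 were lower without overlap and the other 6 overlapped, and no such count was taken over all genes. None of the 8 passed, against 0.0% of all genes called, and 3 of 8 had an unadjusted p under 0.05 against 6.4%. DESeq2 called 2 of 8 (Ifitm1, adjusted p = 0.00011, and Akr1c13, adjusted p = 0.0364) against 2.25%, and limma-voom called 0 of 8. With no filter on low counts edgeR called Ifitm1 (adjusted p = 0.0359). The null ALP libraries in these tests also count as used in the choice of the genes, so these counts are no independent support.

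Compared with LMPPs, all 8 genes were lower in BLPs of both genotypes without overlap, against 21.7% of all genes lower in control and 21.4% in null mice. The log2 fold changes in control mice were −6.93 for Muc13, −5.47 for Wfdc17, −4.68 for Krt18 and −2.85 for Dapp1. They were between −1.95 and −1.45 for Ifitm1, Afap1l1, Akr1c13 and Anxa1. These values share the LMPP libraries with the choice of the genes and were not tested.

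Relatives of the 8 genes were read from lists of their families, each given beside a median of all genes that lay between 0 and 0.003 on the log2 scale from LMPPs to ALPs. Among the interferon-induced transmembrane genes, 4 of the 5 relatives tested were lower in control ALPs than in control LMPPs, and 2 passed edgeR's test. Of all genes 0.0955% were called lower and 0.176% higher at this gate in control mice, and 0.0553% and 0.156% in null mice. Ifitm3 averaged 867 CPM in control LMPPs and 224 CPM in control ALPs, and Ifitm2 averaged 459 and 103 CPM. In null mice Ifitm3 alone passed, with means of 612 and 218 CPM. The 8 annexins tested besides Anxa1 were all lower in ALPs in both genotypes, with a median log2 fold change of −1.15 in control and −0.86 in null mice, and none passed. Anxa5 averaged 159 CPM in control LMPPs and 34.7 CPM in control ALPs, Anxa6 averaged 164 and 143 CPM, and Anxa4 averaged 176 and 165 CPM. Of the 14 tested genes of PI3 kinase signalling listed with Dapp1, 5 were higher and 9 lower in control ALPs, and 8 were higher and 6 lower in null ALPs. The 1 that passed in either genotype was Blnk, a B cell adaptor, which rose from 19.5 to 559 CPM in control and from 6.90 to 383 CPM in null mice, opposite to Dapp1. None of these calls held when the fit used the compared libraries alone, without either mouse of the genotype or without the ALPs of mice 18219 and 18220. With the mouse as a block the adjusted p of Ifitm3 was 0.0269 in control and 0.0569 in null mice, that of Ifitm2 was 0.0604 in control mice, and that of Blnk was 0.0655 and 0.0569.

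The other families had fewer expressed relatives. Cd34, a sialomucin of stem cells, averaged 1618 CPM in control LMPPs and 733 CPM in control ALPs and did not pass. Endomucin (Emcn) averaged 64.8 and 12.3 CPM. Of the 6 genes tested that were listed with Muc13, 2 were higher and 4 lower in control ALPs, and 6 were lower in null ALPs. Cd164, another of them, had a log2 fold change of −0.25 ± 0.28 (SE) in null mice. None of the 6 passed at this gate. Wfdc18 averaged 43.2 CPM in control LMPPs and 3.81 CPM in control ALPs, Slpi averaged 1.04 and 18.0 CPM, and none of the 5 other genes of the whey acidic protein family passed. Akr1c12, which shares sequence with Akr1c13, averaged 11.0 and 0.259 CPM in these populations of control mice and 7.21 and 2.71 CPM in those of null mice. Vimentin (Vim), an intermediate filament protein of blood cells, averaged 290 and 62.5 CPM and did not pass, and Krt8 was among the genes removed for low counts. Afap1 averaged 6.43 and 9.05 CPM. No relative in any of the 8 families passed in a comparison between genotypes or from ALPs to BLPs.

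Markers of other stages differed between the populations as well. The sum of 20 stem and multipotent markers was 4309 to 5077 CPM in LMPPs, 1737 to 2075 CPM in ALPs and 1146 to 1291 CPM in BLPs. Hlf, Procr and Lmo2, all active in stem cells, fell from LMPPs to ALPs in both genotypes in edgeR's test. Their calls too were lost with the compared libraries alone and without either mouse of the genotype. With the mouse as a block Lmo2 passed (adjusted p = 0.0235 and 0.0328), and Hlf (0.0661 and 0.111) and Procr (0.0741 and 0.106) did not. Myeloid markers summed to 1367 to 2218 CPM in LMPPs, and 12 of the 13 tested were lower in control ALPs and 9 in null ALPs. Erythroid and megakaryocyte markers summed to 1763 to 2804 CPM in LMPPs and 387 to 522 CPM in ALPs. Among them edgeR called Car2 lower in both genotypes and Nfe2 lower in control mice. Tfrc, the transferrin receptor, was called higher, rising from 63.9 to 263 CPM in control and from 36.0 to 197 CPM in null mice. The call of Tfrc was lost in the same fits with fewer libraries, and those of Car2 and Nfe2 with the compared libraries alone. Early B markers summed to 1660 to 2919 CPM in LMPPs and 9952 to 11030 CPM in ALPs. The part of these lists in the levels of the 8 genes was not tested.

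Over the 12 libraries, the genes whose log2(CPM + 1) was most like that of the members were sought among 7405 protein-coding genes. The nearest were Glul for Muc13 (Pearson r = 0.985) and for Afap1l1 (0.953), Ccl9 for Ifitm1 (0.896) and Zfand5 for Wfdc17 (0.964). For Krt18 it was Lmo2 (0.957), for Dapp1 Ifitm3 (0.961) and for Anxa1 Vamp8 (0.966). The next in order were Adgrg1 for Muc13, Plp2 for Ifitm1, Pcp4l1 for Wfdc17, Muc13 for Afap1l1, Pgrmc1 for Krt18, Rab38 for Dapp1 and Myl6 for Anxa1. Among the 8 genes themselves the highest correlation was between Muc13 and Afap1l1 (0.949) and the lowest between Wfdc17 and Akr1c13 (0.428). The 12 libraries share 4 mice and the same gates, so these values describe the profiles and carry no test.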

How the data were processed

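Single cells were sequenced by a full-length protocol without molecular identifiers, per the labels' protocols. The deposited values are whole-number read counts per gene and cell, made by the authors with GSNAP 2015-09-29 and HTSeq 0.5.3p3 on mm10, per the submitters' processing notes. The strand setting is not stated in the sources used here. Reads not aligned (33.0%), outside genes (11.6%) or ambiguous (6.08%) and 92 spike-ins stayed out.

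Cells were kept with at least 50000 nuclear gene counts, 1000 nuclear genes, at most 20% mitochondrial and 50% spike-in counts, and were summed per mouse and population. The 12 libraries entered 1 edgeR 4.0.16 fit (R 4.3.3, TMM, filterByExpr, 6 groups, 6 residual degrees of freedom, quasi-likelihood test, Benjamini-Hochberg over 19903 genes). Standard errors are the absolute log2 fold change over the root of F. Cells of each library came from 1 mouse, and the same mouse gave all 3 populations. Mouse numbers therefore pair the gate comparisons, although deviations of libraries of a mouse correlated by only 0.0341 to 0.0694. limma 3.58.1 (voom), DESeq2 1.42.0 and other settings were alternatives. The code was tested on simulated data.

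Genes and lists were chosen with earlier results of these data known. In each tested comparison the 3 of the 8 with the smallest p are given with full statistics, and up to 3 relatives of each family by mean level. Marker genes at 0 or called, the test between genotypes of the ALP to BLP step, and fits with the order of columns as a block or without the ALPs of mice 18219 and 18220 were chosen after values were seen. The genes most like Akr1c13 are not reported here. Coordinates are those of GENCODE on GRCm38, the same assembly as mm10.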

Additional observations from a re-analysis of the deposited data

Results flagged for a closer look

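Akr1c13 moved in opposite directions from ALPs to BLPs in the genotypes: it was higher in BLPs of both control mice and lower in BLPs of both null mice in CPM. The share of cells with a read overlapped between ALPs and BLPs in both genotypes, with means in BLPs minus ALPs of −1.67 percentage points in control and −7.41 in null mice, and 1 cell gave 95.8% of the Akr1c13 reads in BLPs of control mouse 18220. The step in null mice minus that in control mice was −2.11 ± 0.46 on the log2 scale (SE), and this difference did not pass edgeR's test over all genes (adjusted p = 0.776). Wfdc17 did the reverse, lower in both control mice and higher in both null mice in CPM, with a difference of 2.18 ± 0.64 (adjusted p = 0.776). Its share of cells was lower in control BLPs without overlap, and overlapped in null mice, where the means differed by −0.55 percentage points. In that test 0 of 19903 genes passed and 1269 had an unadjusted p under 0.05; the other tools were not run on it.

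Dapp1 was lower in both null mice than in both control mice in LMPPs, at a log2 fold change of −0.19, and in ALPs, at −0.42. In BLPs it was higher in both null mice, at 0.38, with overlapping shares of cells. The change between ALPs and BLPs, 0.79 ± 0.24, did not pass edgeR's test (adjusted p = 0.776), and that between LMPPs and BLPs was not tested.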

How the results depend on the processing

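The number of the 8 genes called was 0 in each of the 5 tested comparisons and stayed at 0 in all fits except those named here. DESeq2 called 1 in LMPPs, 3 in ALPs and 2 in BLPs between genotypes, and 5 in control and 2 in null mice from ALPs to BLPs. Without a filter on low counts edgeR called 2 in control and 1 in null mice from ALPs to BLPs, and with thinned cells 1 in control mice. The cause of these differences was not tested. The count of 8 genes lower in ALPs without overlap in each genotype could not fall when a mouse was left out, so leaving mice out does not test it. Leaving out the ALPs of mice 18219 and 18220 gave 0 called. A library left alone in its group was assumed to vary like those of the other groups. With the mouse as a replicate block, 0 of the 8 were called from ALPs to BLPs in either genotype, and the pairing changed no call of these 8 in the ALP to BLP step. Of the log2 fold changes of named genes refitted in tested comparisons, 186 kept their direction and call and 15 kept their direction and passed the threshold. Adjusted p-values ranged over these fits from 7.9e-18 (DESeq2) to 1 for Akr1c13 in ALPs, and from 6.0e-11 (DESeq2) to 0.814 for Krt18 in BLPs. Some values moved widely: Krt18 from ALPs to BLPs in control mice ran from −2.75 to −0.74, the latter with thinned cells, and Muc13 between genotypes in BLPs from 1.50 (thinned cells) to 4.72 (without mouse 18220). Over all genes, 19 were called lower from LMPPs to ALPs in control and 11 in null mice, against 0 in both with the compared libraries alone and 375 and 311 by DESeq2. With 2 mice a group and a common biological coefficient of variation of 86.9%, a p that misses the threshold does not show that the levels were alike.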

Other observations

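In LMPPs all 20 genes of the interferon response list were lower in null than in control mice, with a median log2 fold change of −1.24, against a median of −0.02 and 10124 of 19903 genes lower for all genes, and none passed edgeR's test. Their summed level was 3151 and 2078 CPM in control and 1519 and 1325 CPM in null LMPPs. Ifitm1, a member of an interferon-induced family, overlapped between the same libraries, at 479 and 475 CPM against 356 and 537 CPM. The relation of the list to Ifitm1 was not tested.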
